A study of Mus musculus with 6 samples.

Results

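The genes studied here encode 10 proteins of the Z-disc of striated muscle: the alpha-actinins Actn2 and Actn3, the calsarcins Myoz1, Myoz2 and Myoz3, the structural proteins Ldb3, Tcap and Myot, and the stress-responsive proteins Csrp3 and Ankrd2. They were taken by symbol from the 24411 genes of the count table, and all 10 passed the filter on low counts that left 12828 genes for testing. RNA-seq was performed on Sol (soleus, a slow-twitch fiber-dominant muscle) from 3 WT mice and 3 LSD1-mKO mice, which lack the histone demethylase LSD1 in skeletal muscle, after voluntary wheel running (VWR). The comparison shows how the genotypes differed in this muscle after VWR. With no mice kept without the wheel in the series, the response to exercise itself was not measured.

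All mice were on the C57BL/6 background and carried the floxed Lsd1 alleles. The LSD1-mKO mice also carried a CreERT2 recombinase driven by the human ACTA1 promoter, so that Lsd1 is deleted in differentiating and differentiated muscle cells, where that promoter is active. Vascular and blood cells of the tissue are not the target of the deletion. The WT mice had no CreERT2, and the male mice of both groups received tamoxifen at 75 mg/kg on 5 days, after 3 days with the wheel, starting at 8 weeks of age. Each had 38 days with the wheel in all. No group without tamoxifen, without the wheel or with CreERT2 alone is in the series, so effects of the recombinase itself and of LSD1 loss cannot be told apart. Each library is 1 mouse, with 8940206 to 13798059 estimated counts. Kdm1a, which encodes LSD1, stood at 40.51, 38.17 and 33.58 counts per 1000000 (CPM) in the WT mice and at 14.57, 16.65 and 16.58 CPM in the LSD1-mKO mice. It fell by 1.23 on the log2 scale (SE 0.109, adjusted p = 0.016, edgeR quasi-likelihood test with Benjamini-Hochberg adjustment). The 7 soleus muscle markers, among them Acta1, Ckm and Myh7, summed to 70530 to 89240 CPM per library. The 7 fibroblast markers differed more between libraries, with sums of 1444, 3826 and 4808 CPM in the WT mice and 3003, 1432 and 1558 CPM in the LSD1-mKO mice.

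The Z-disc is the plate at the border of each sarcomere where the thin filaments of neighboring sarcomeres are cross-linked by alpha-actinin. Titin, nebulin, the calsarcins, LIM-domain proteins and signaling enzymes such as calcineurin attach to it, so that it bears force and is thought to act as a sensor of mechanical load. Slow and fast fibers differ in its makeup: ACTN2 is found in all fibers, ACTN3 in fast fibers, calsarcin-1 (Myoz2) in slow fibers and the heart, and calsarcin-2 (Myoz1) in fast fibers.

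Between the genotypes, 0 of the 10 genes passed the threshold of an adjusted p of 0.05, where 0.0156% of all genes tested did, 0.0078% in each direction (edgeR quasi-likelihood test with Benjamini-Hochberg adjustment). The lowest adjusted p was that of Actn3 (0.636, edgeR), which was 2.84-fold higher on average in the LSD1-mKO mice. Myot (0.817) and Tcap (0.829) followed. The levels of Myot did not overlap between the genotypes, which also held for 12.7% of all genes tested. With no adjustment, a p under 0.05 was reached by 1 of the 10 genes, Actn3, against 6.4% of all genes tested. DESeq2 and limma voom, run in place of edgeR, also called 0 of the 10 at an adjusted p under 0.05. The fitted level was above that of WT for 5 of the 10 genes and below it for 5, and it was above it for 45.2% of all genes tested. Their median log2 fold change was -0.0132, beside -0.0202 for all genes tested. Actn3, Ldb3 and Myot are also on a list of genes that the study selected as higher in LSD1-mKO from these same mice, so that list is not independent evidence of their direction. In a bulk sample, fewer fibers of a type and less RNA per fiber cannot be told apart.

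**Figure D1:**
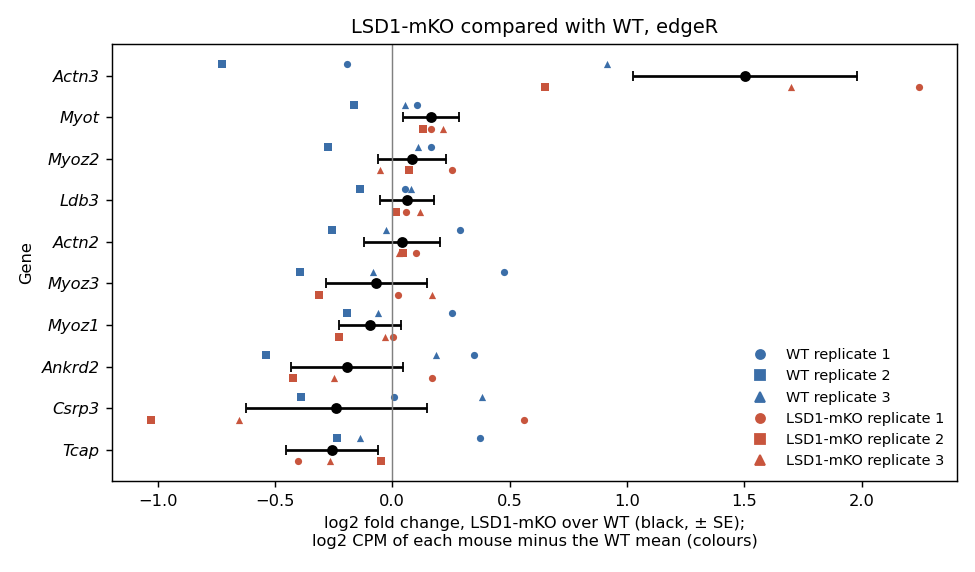
Log2 fold change of LSD1-mKO over WT for each of the 10 genes (black points, with the SE from edgeR), with the log2 CPM of each mouse relative to the WT mean (blue, WT; red, LSD1-mKO; the symbol is the replicate number). Actn3 lies farthest from 0, at 1.50, with WT replicate 3 above LSD1-mKO replicate 2, and the other 9 genes lie between -0.26 and 0.17.

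The levels of these genes differed widely when set per length of transcript. In transcripts per 1000000 (TPM), Tcap was the most abundant, with a mean of 14790 ± 2360 TPM in the WT mice (SD, n = 3), and it ranked 5 among all genes of the table by its mean over the 6 mice. Actn2 followed at 3636 ± 413 TPM, and Csrp3, Myoz2, Myot and Ankrd2 lay between 2181 and 2548 TPM. Ldb3 and Myoz1 stood at 916 ± 57.7 and 835 ± 71.4 TPM, and the least abundant were Actn3 at 90.7 ± 55.7 TPM and Myoz3 at 45.6 ± 10.6 TPM. The ranges of neighbors over the 6 mice were apart at 3 steps: Tcap above Actn2, Ankrd2 above Ldb3, and Myoz1 above Actn3. The ranges of the other neighbors overlapped between mice. Within each single mouse, Actn2 was also above Csrp3, and Actn3 above Myoz3. Together the 10 genes held 2.63% to 3.31% of all TPM in a library, and Tcap held 38.6% to 52.9% of that sum.

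**Figure D2:**
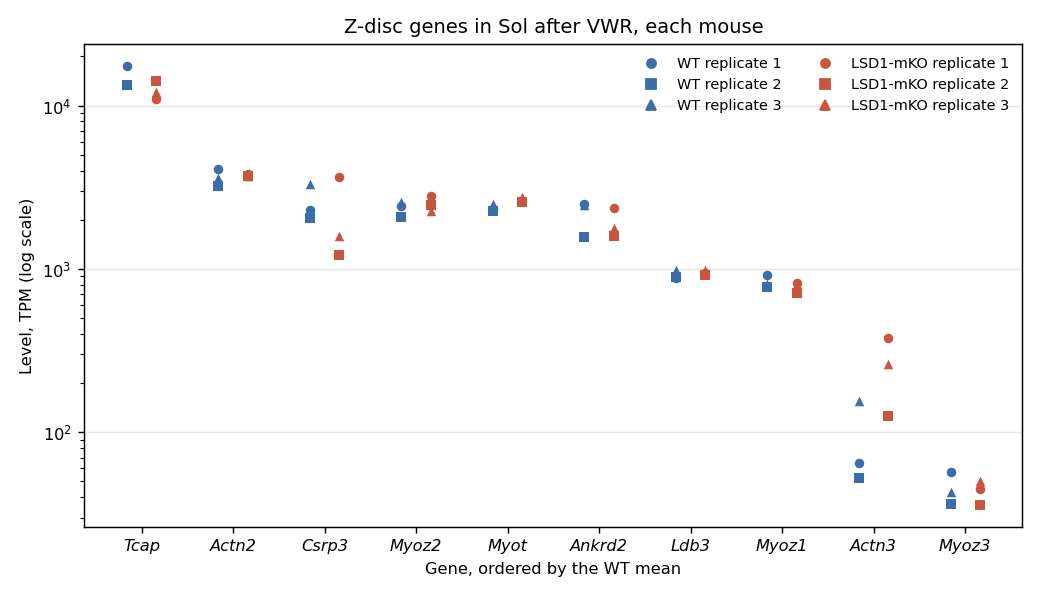
Level of each gene in TPM (log scale) in the 3 WT mice (blue) and the 3 LSD1-mKO mice (red), ordered by the WT mean. Tcap, at 10970 to 17510 TPM, is above every other gene in all mice, and Actn3 spans the widest range, from 52.4 to 378 TPM.

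ACTN2 and ACTN3 are the sarcomeric alpha-actinins, rod-shaped antiparallel dimers with an actin-binding domain at each end, which also bind titin. Actn2 lies on chr13:12269426-12340760 and Actn3 on chr19:4861216-4877909 (GRCm38), both on the minus strand with 21 exons in the transcript used here. The paralogs share much of their coding sequence, and 75.9% of 2673 aligned coding bases were identical, with a longest identical run of 51 bases. The reads were 75 bases long. The stretch of that length with the fewest differences is shown because it is where reads of one paralog could most easily be taken for the other. It covers coding bases 398 to 472 of Actn3 (chr19:4871771-4871839 in exon 4 and chr19:4871679-4871684 in exon 5) and 380 to 454 of Actn2 (chr13:12308900-12308968 in exon 4 and chr13:12306356-12306361 in exon 5), and capitals mark the 6 bases that differ.
Actn3: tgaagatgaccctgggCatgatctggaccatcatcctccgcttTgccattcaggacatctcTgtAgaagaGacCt
Actn2: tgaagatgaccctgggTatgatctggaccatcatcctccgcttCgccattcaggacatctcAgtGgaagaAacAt
Every ungapped stretch of 75 aligned bases held at least 6 differences, with a median of 17, and none of the 2813 stretches of 75 bases in the Actn3 transcript, and none of the 2939 in that of Actn2, occurred in a transcript of another gene. An exact read of 75 bases from one of these transcripts was therefore specific to its gene.

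Actn2 stood at 5992, 4106 and 4814 CPM in the WT mice and at 5270, 5065 and 5012 CPM in the LSD1-mKO mice. The 3 LSD1-mKO mice lay inside the WT range. The log2 fold change was 0.04 (SE 0.163, adjusted p = 0.969, edgeR), and -0.08 without WT replicate 2.

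Actn3, the alpha-actinin of fast fibers, stood at 91.86, 63.56 and 198 CPM in the WT mice and at 497.5, 164.7 and 341.2 CPM in the LSD1-mKO mice. The highest levels were in LSD1-mKO replicates 1 and 3, and the lowest in WT replicates 1 and 2, but WT replicate 3 was above LSD1-mKO replicate 2, so the groups overlapped. The log2 fold change was 1.50 with an SE of 0.476, the unadjusted p was 0.0128 and the adjusted p was 0.636 (edgeR quasi-likelihood test with Benjamini-Hochberg adjustment). An exact permutation test of the CPM over the 20 splits of the 6 mice gave p = 0.2 (2-sided), where 0.1 is the smallest p that this design allows. The difference was thus past an unadjusted p of 0.05 in edgeR and failed the adjustment over the 12828 genes tested, and the permutation test was too small to pass 0.05. Leaving out 1 mouse at a time moved the log2 fold change between 1.10, without LSD1-mKO replicate 1, and 2.11, without WT replicate 3, with unadjusted p of 0.048 and 0.00158.

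The share of Actn3 in the summed TPM of Actn2 and Actn3 was 1.58%, 1.59% and 4.12% in the WT mice and 8.97%, 3.28% and 6.63% in the LSD1-mKO mice. The mean was 2.43% ± 1.46 in WT and 6.29% ± 2.86 in LSD1-mKO (SD, n = 3 each) with the same overlap of WT replicate 3 and LSD1-mKO replicate 2, a difference of 3.87 percentage points (SE 1.85, exact permutation test, 2-sided, p = 0.2). Without single mice the difference was 2.53, without LSD1-mKO replicate 1, to 5.37, without LSD1-mKO replicate 2. Actn2 and Actn3 together stood at 3295 to 4130 TPM in WT and 3845 to 4215 TPM in LSD1-mKO.

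The level of Actn3 was then set against the other fast fiber genes of the same mice. Of the 12 genes on the fast fiber list, 4 had a higher and 8 a lower fitted level in LSD1-mKO, none passed the adjusted threshold, and none had an unadjusted p under 0.05. The median log2 fold change of the list was -0.05, beside -0.0202 for all genes tested. This median had no fixed sign, with 0.0968 without WT replicate 1, 0.00379 without LSD1-mKO replicate 2 and -0.158 without WT replicate 2. The summed level of the list was 83190, 71900 and 79970 TPM in the WT mice and 84400, 68590 and 78130 TPM in the LSD1-mKO mice. Relative to this sum, log2 Actn3 was higher by 1.55 in LSD1-mKO (SE 0.59, exact permutation test, 2-sided, p = 0.2), and leaving out single mice moved this difference between 1.27 and 2.00.

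Among the genes of the list, Mybpc2, the fast form of myosin-binding protein C, had the highest fold change. It stood at 52.2, 6.84 and 147.7 CPM in the WT mice and at 91.5, 35.4 and 122.6 CPM in the LSD1-mKO mice, with a log2 fold change of 0.26 (SE 0.827, adjusted p = 0.959, edgeR). In both genotypes replicate 2 was its lowest mouse, and the same held for Actn3, but the order of the other mice differed: Mybpc2 was highest in WT replicate 3 and Actn3 in LSD1-mKO replicate 1. Myh1, the IIX myosin heavy chain, stood at 5124, 2353 and 4635 CPM in WT and at 4004, 3602 and 6072 CPM in LSD1-mKO (log2 fold change 0.18, adjusted p = 0.933, edgeR). Myh4, the IIB heavy chain, was low throughout, at 14.98 to 40.63 CPM (log2 fold change -0.36, adjusted p = 0.868, edgeR). Pvalb, the calcium buffer parvalbumin of fast fibers, had the lowest fold change of the list at -0.49 (adjusted p = 0.866, edgeR), with the groups overlapping. On the slow fiber list the fitted level was above that of WT for 8 of 10 genes, none of them past either threshold, and the list's median was 0.155 on the log2 scale. Myh7, the slow myosin heavy chain, had a log2 fold change of -0.05 and Tnnt1, slow troponin T, one of 0.15.

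**Figure D3:**
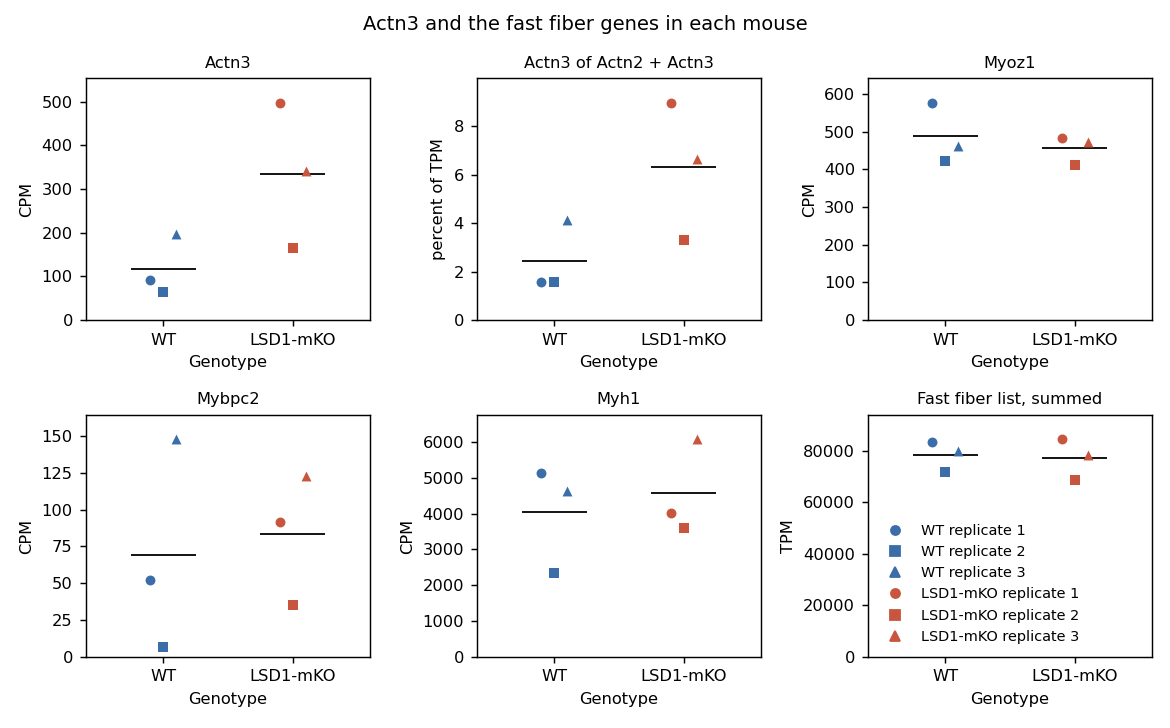
Actn3 in CPM, its percent of Actn2 plus Actn3 TPM, Myoz1, Mybpc2 and Myh1 in CPM, and the summed fast fiber list in TPM, in each WT (blue) and LSD1-mKO (red) mouse; the black lines are the group means and every axis starts at 0. The mean of Actn3 goes from 117.8 to 334.4 CPM while the summed list stays between 68590 and 84400 TPM in all 6 mice.

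Genes were ranked by how near their levels over the 6 mice lay to those of Actn3. The measure was the root mean square distance between mean-centered log2 CPM, among genes with a mean of at least 5 CPM. The values were not scaled, so the distance reflects the size of the differences between mice as well as their order. A gene that varies little lies far from Actn3 whatever its order of mice. The nearest 5 were Cyfip2, a subunit of the actin-regulating WAVE complex, at a distance of 0.407, Krt80, a keratin, at 0.476, Tmem56 at 0.48, Rom1, a tetraspanin known from photoreceptors, at 0.522 and Slc16a3, the lactate exporter MCT4, at 0.549. Cyfip2 stood at 64.3, 62.7 and 142.1 CPM in the WT mice and at 273.2, 142.6 and 143.2 CPM in the LSD1-mKO mice. Krt80 was lower, at 8.68, 6.66 and 8.62 CPM in WT and at 29.0, 16.4 and 20.4 CPM in LSD1-mKO. Both had their highest value in LSD1-mKO replicate 1 and their lowest in WT replicate 2, as Actn3 did. They were chosen for their nearness to Actn3, so this likeness is no separate evidence. None of the 5 genes passed the adjusted threshold. Of the fast fiber list the nearest was Myh1, at 0.87 and rank 222, and the other 9 Z-disc genes lay at 0.928 (Myot) to 1.18 (Tcap).

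The calsarcins (myozenins) tether calcineurin to alpha-actinin, filamin C and telethonin at the Z-disc, and lowering calsarcin is known to raise calcineurin signaling in muscle. Myoz1 lies on chr14:20649107-20656540 and Myoz2 on chr3:123006206-123035015 (GRCm38), both on the minus strand. Myoz1 and Myoz2 are less alike than the alpha-actinins, with 61.5% of 723 aligned coding bases identical and no identical run longer than 10 bases. Their closest stretch of 75 bases is shown for comparison with the alpha-actinin pair. It lies in exon 3 of both genes, at chr14:20653712-20653786 for Myoz1 and chr3:123026151-123026225 for Myoz2, and capitals mark the 25 bases that differ.
Myoz1: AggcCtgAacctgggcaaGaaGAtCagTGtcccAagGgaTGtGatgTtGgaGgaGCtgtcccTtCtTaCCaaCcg
Myoz2: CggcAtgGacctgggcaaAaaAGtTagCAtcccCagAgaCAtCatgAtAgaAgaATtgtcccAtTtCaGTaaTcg
In the transcript of Myoz3, 67 of 3362 stretches of 75 bases (1.99%) also occurred in other genes, and in the other 9 transcripts none did, so the count of Myoz3 is the less certain one.

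Myoz1, the calsarcin of fast fibers, stood at 577.5, 422.4 and 463.4 CPM in the WT mice and at 483.9, 412.8 and 472.7 CPM in the LSD1-mKO mice. Apart from WT replicate 1, which was highest, the mice of both groups lay close together, and the log2 fold change was -0.10 (SE 0.133, adjusted p = 0.909, edgeR). Myoz2, the slow and cardiac form, stood at 1405, 1038 and 1354 CPM in WT and at 1496, 1320 and 1209 CPM in LSD1-mKO. WT replicate 2 was its lowest mouse and the groups overlapped (log2 fold change 0.08, SE 0.146, adjusted p = 0.932, edgeR). Myoz3 (chr18:60573750-60591788) was the lowest of the family, at 96.2, 52.8 and 65.4 CPM in WT and at 70.4, 55.8 and 78.0 CPM in LSD1-mKO, with its highest and its lowest level both in WT mice (log2 fold change -0.07, SE 0.215, adjusted p = 0.959, edgeR). These values near 0 had no fixed sign: without WT replicate 1 the log2 fold change of Myoz1 was 0.05 and that of Myoz3 was 0.20, and without WT replicate 2 that of Myoz2 was -0.04.

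Per length, Myoz2 made up 71.4% to 76.9% of the calsarcin TPM in the 6 mice, Myoz1 22.0% to 26.9% and Myoz3 1.12% to 1.68%. The ratio of Myoz1 to Myoz2 TPM was 0.377, 0.373 and 0.314 in the WT mice and 0.296, 0.287 and 0.358 in the LSD1-mKO mice. The ratio was highest in WT replicates 1 and 2, and the groups overlapped. On the log2 scale it was -0.18 in LSD1-mKO relative to WT (SE 0.132, exact permutation test, 2-sided, p = 0.2), and it ran from -0.28, without LSD1-mKO replicate 3, to -0.12, without LSD1-mKO replicate 2. For the fast fiber forms of both families, the log2 fold changes were -0.10 for Myoz1 and 1.50 for Actn3, and the difference between the 2 was not tested.

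The genes of calcineurin and its partners were described beside the calsarcins. Of 10 genes, all of them tested, 6 had a higher and 4 a lower fitted level in LSD1-mKO, and none passed the adjusted threshold (edgeR quasi-likelihood test with Benjamini-Hochberg adjustment). With no adjustment, a p under 0.05 was reached by 2 of them in the higher direction and by 1 in the lower, against 3.52% and 2.88% of all genes tested. Nfatc4, one of the transcription factors that calcineurin activates, stood at 7.96, 10.3 and 8.17 CPM in the WT mice and at 7.18, 6.37 and 5.40 CPM in the LSD1-mKO mice, without overlap (log2 fold change -0.48, SE 0.179, adjusted p = 0.728, edgeR). Nfatc3, another of them, stood at 34.0, 38.8 and 43.4 CPM in WT and at 45.7, 45.4 and 48.3 CPM in LSD1-mKO, also without overlap (log2 fold change 0.26, SE 0.105, adjusted p = 0.742, edgeR). The third gene of that count, named after its values were seen, was the calcineurin regulator Rcan2 (log2 fold change 0.37, adjusted p = 0.766, edgeR).

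Ldb3 (ZASP or Cypher), Tcap (telethonin) and Myot (myotilin) are structural proteins of the Z-disc: the PDZ and LIM protein LDB3 binds alpha-actinin, telethonin caps the end of titin, and myotilin binds alpha-actinin, filamin C and actin. Ldb3 lies on chr14:34526603-34588682, Tcap on chr11:98383811-98384953 and Myot on chr18:44334074-44355724 (GRCm38). Ldb3 stood at 2191, 1918 and 2231 CPM in the WT mice and at 2196, 2135 and 2288 CPM in the LSD1-mKO mice. All mice were within 1.19-fold of each other, and the groups overlapped (log2 fold change 0.06, SE 0.114, adjusted p = 0.933, edgeR). Without WT replicate 2 the log2 fold change of Ldb3 was -0.0016.

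Tcap stood at 8123, 5315 and 5688 CPM in WT and at 4743, 6059 and 5212 CPM in LSD1-mKO. WT replicate 1 was above all others, and the other 5 mice were mixed (log2 fold change -0.26, SE 0.196, adjusted p = 0.829, edgeR). Without WT replicate 1 the log2 fold change of Tcap was -0.04.

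Myot stood at 2534, 2102 and 2443 CPM in the WT mice and at 2635, 2578 and 2731 CPM in the LSD1-mKO mice. The lowest LSD1-mKO mouse was just above the highest WT mouse, and Myot was the 1 of the 10 genes whose groups did not overlap, where 12.7% of all genes tested did not. Its log2 fold change was 0.17 (SE 0.120, adjusted p = 0.817, edgeR), and the exact permutation test, 2-sided, gave p = 0.1, the smallest that 3 against 3 mice allow. The sign was kept without each mouse in turn, with log2 fold changes of 0.09 to 0.22.

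Csrp3 (muscle LIM protein) and Ankrd2 (a muscle ankyrin repeat protein) move between the Z-disc or I-band and the nucleus and are known to rise with stretch or load of slow muscle. Csrp3 lies on chr7:48830398-48848033 and Ankrd2 on chr19:42036000-42045110 (GRCm38). Csrp3 stood at 1015, 770.6 and 1316 CPM in the WT mice and at 1492, 494.7 and 641.3 CPM in the LSD1-mKO mice. Its highest and its lowest mouse were both LSD1-mKO, replicates 1 and 2, which differed by 3.02-fold (log2 fold change -0.24, SE 0.386, adjusted p = 0.926, edgeR). Without LSD1-mKO replicate 1 the log2 fold change of Csrp3 was -0.86, and without LSD1-mKO replicate 2 it was 0.05.

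Ankrd2 stood at 1393, 753.7 and 1245 CPM in WT and at 1228, 815.3 and 921.3 CPM in LSD1-mKO. Replicate 2 was lowest in both genotypes and the groups overlapped (log2 fold change -0.19, SE 0.238, adjusted p = 0.895, edgeR), with a log2 fold change of -0.01 without WT replicate 1. The other muscle ankyrin repeat genes were Ankrd1 (CARP), at 27.0 to 66.2 CPM with a log2 fold change of -0.38 (adjusted p = 0.873, edgeR), and Ankrd23 (DARP), which stood at 2176, 1890 and 1373 CPM in WT and at 2221, 2401 and 2226 CPM in LSD1-mKO. The levels of Ankrd23 did not overlap between the genotypes, with a log2 fold change of 0.33 (SE 0.170, adjusted p = 0.766, edgeR).

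The 10 genes differed in how much they varied between mice of the same genotype. The SD of log2 CPM within genotype was 0.824 for Actn3, at percentile 97.9 of all genes tested, 0.649 for Csrp3 at percentile 95.2, and 0.397 for Ankrd2 at percentile 84.3. At the other end it was 0.0914 for Ldb3, at percentile 15.5, and 0.105 for Myot, at percentile 21.6. The highest mouse exceeded the lowest by 7.83-fold for Actn3, 3.02-fold for Csrp3 and 1.19-fold for Ldb3. The spread of Actn3 was similar in both groups, with SDs of 0.836 in WT and 0.811 in LSD1-mKO, whereas that of Csrp3 was 0.386 in WT and 0.833 in LSD1-mKO. Of single mice, WT replicate 1 was the highest for 5 of the 10 genes and WT replicate 2 the lowest for 7 in CPM. The same mice held the highest and the lowest sums of the soleus muscle markers (89240 and 70530 CPM) and of the fast fiber list (54070 and 38120 CPM). They also had the lowest and the highest TMM scaling factor, 0.9286 and 1.073. In TPM, Ldb3 was lowest in WT replicate 1, at 874.9. The share of all genes tested with these extremes was not computed. The summed fibroblast markers stood at 1444 CPM in WT replicate 1, against 3826 and 4808 CPM in the other WT mice. They were as low in LSD1-mKO replicates 2 and 3, at 1432 and 1558 CPM, which were highest for 0 and 2 of the 10 genes. The part of the fibroblast markers in the levels of these genes was not tested.

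**Figure D4:**
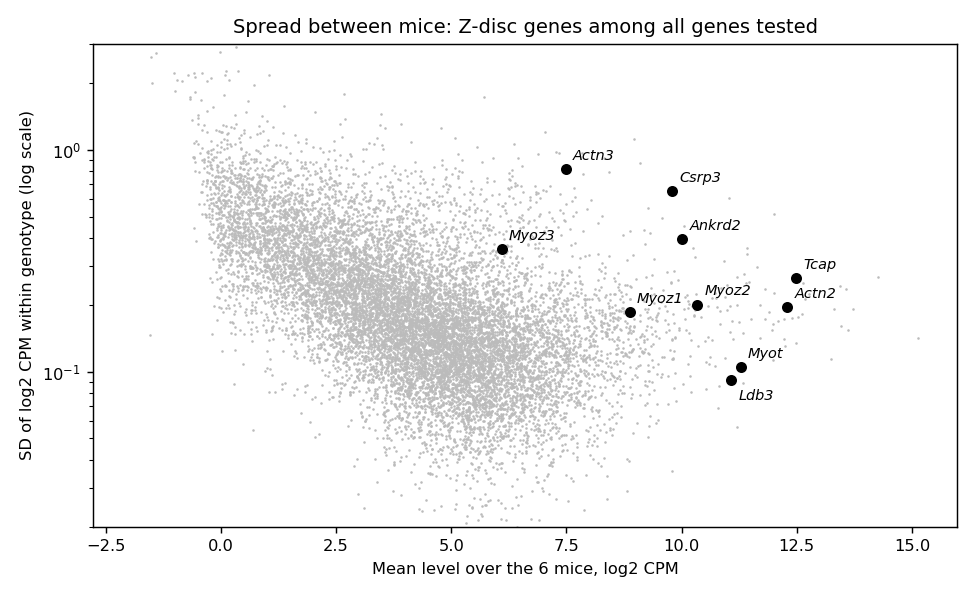
SD of log2 CPM between mice within genotype (log scale) against the mean log2 CPM over the 6 mice, for all 12828 genes tested (grey) and the 10 Z-disc genes (black). Actn3 (SD 0.824) and Csrp3 (0.649) stand near the top of the cloud and Ldb3 (0.0914) and Myot (0.105) low in it.

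Promoters were taken from RefSeq (GRCm38.p6, 250 bases before to 50 after a start site). Those of 5 of the 10 genes were searched: Actn2, Ankrd2, Csrp3, Ldb3 and Myoz2. The promoters of the other genes, Myot and Myoz3 among them, were left out of the search, so the motif results do not cover them. Promoters are shown for Ldb3 and Csrp3, the least and the most variable between mice of the 5 genes searched. That of Myoz2, the main calsarcin of this muscle, is also shown. Both strands were searched for an E-box (CANNTG, bound by MyoD-family factors), a MEF2 motif (CTA followed after 4 bases by TAG) and a CArG box (bound by serum response factor), and matches are in capitals. The MEF2 motif was searched with any 4 bases in its middle, and the Ldb3 match (CTATTCTTAG) holds a C there. The Ldb3 promoter (chr14:34588632-34588931, minus strand) held a CArG box from base -35 and a MEF2 motif from base 19, counted from the start site. The Myoz2 promoter (chr3:123034938-123035237, minus strand) held a MEF2 motif from base -33 and 2 E-boxes. Csrp3 had 2 promoters, both on the minus strand: the upstream one (chr7:48848002-48848301) held 5 E-boxes, and the downstream one (chr7:48843622-48843921), at the start of the transcript used for its TPM, held 4. Ldb3 also had a second, overlapping promoter with the same CArG box and MEF2 motif, which is not shown.
Ldb3: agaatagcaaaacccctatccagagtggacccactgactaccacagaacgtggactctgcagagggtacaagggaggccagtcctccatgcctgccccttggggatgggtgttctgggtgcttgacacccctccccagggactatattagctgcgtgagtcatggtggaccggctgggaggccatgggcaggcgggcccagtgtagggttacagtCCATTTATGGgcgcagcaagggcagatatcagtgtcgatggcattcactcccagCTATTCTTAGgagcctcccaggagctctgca
Myoz2: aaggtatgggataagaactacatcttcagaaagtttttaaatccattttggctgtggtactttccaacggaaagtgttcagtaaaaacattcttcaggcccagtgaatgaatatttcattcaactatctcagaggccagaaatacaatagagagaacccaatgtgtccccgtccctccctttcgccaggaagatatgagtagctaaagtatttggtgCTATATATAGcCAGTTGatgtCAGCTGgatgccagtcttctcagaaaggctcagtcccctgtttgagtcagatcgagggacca
Csrp3 upstream: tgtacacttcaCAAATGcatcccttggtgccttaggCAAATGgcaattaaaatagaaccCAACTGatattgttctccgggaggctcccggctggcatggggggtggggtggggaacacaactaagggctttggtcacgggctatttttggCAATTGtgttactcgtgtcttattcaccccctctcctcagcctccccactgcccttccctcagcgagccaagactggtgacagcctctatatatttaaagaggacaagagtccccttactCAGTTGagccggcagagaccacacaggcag
Csrp3 downstream: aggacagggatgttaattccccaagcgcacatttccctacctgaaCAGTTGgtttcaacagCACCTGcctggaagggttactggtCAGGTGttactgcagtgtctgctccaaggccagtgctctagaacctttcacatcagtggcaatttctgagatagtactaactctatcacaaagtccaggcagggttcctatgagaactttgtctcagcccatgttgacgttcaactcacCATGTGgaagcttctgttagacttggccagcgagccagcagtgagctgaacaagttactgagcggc
Of 32851 RefSeq promoters of this length, 72.3% held an E-box, 3.69% a MEF2 motif and 1.63% a CArG box. The motif of NFAT, the factor downstream of calcineurin, was searched as GGAAA and was present in 61.3% of all promoters. It had 2 matches in the Myoz2 promoter, 1 in that of Actn2 and 1 in the downstream promoter of Csrp3. The upstream promoter of Csrp3 and those of Ldb3 and Ankrd2 had none. The motif of estrogen-related receptors, TNAAGGTCA, and the M-CAT motif, CATTCC, were in 1.28% and 14.7% of all promoters and in none of the promoters of these 5 genes.

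Other Z-disc genes were described from a list of 40, of which 39 were tested. None passed the adjusted threshold, 23 were fitted higher and 16 lower in LSD1-mKO, and their median was 0.05 on the log2 scale, beside -0.0202 for all genes tested. With no adjustment, 3 of them had a p under 0.05, 2 in the higher and 1 in the lower direction, against 3.52% and 2.88% of all genes tested. Without WT replicate 1 the higher count was 10, where the genes with a p under 0.05 in either direction over the whole table went from 821 of 12828 to 1886 of 13079. Without LSD1-mKO replicate 1 the lower count was 4, with 954 of 12984 over the whole table. Groups did not overlap for 6 of them, where 12.7% of all genes tested did not.

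The lowest p values among higher genes belonged to Murc, Xirp1, Hspb8 and Ankrd23. Murc (cavin-4), a caveolar protein of muscle, stood at 136.9, 130.5 and 122.8 CPM in the WT mice and at 186.9, 160.0 and 162.6 CPM in the LSD1-mKO mice, without overlap (log2 fold change 0.39, SE 0.0939, adjusted p = 0.485, edgeR). Xirp1, an actin-binding protein of repairing and loaded fibers, stood at 297.6, 278.2 and 284.5 CPM in WT and at 449.7, 295.0 and 386.7 CPM in LSD1-mKO (log2 fold change 0.40, SE 0.146, adjusted p = 0.723, edgeR). LSD1-mKO replicate 2 was inside the WT range for Xirp1. Hspb8, a small heat shock protein that acts with BAG3 on damaged filamin, had a log2 fold change of 0.16 without overlap (SE 0.0804, adjusted p = 0.766, edgeR). Murc, Hspb8 and Ankrd23 are on the list that the study selected from these mice.

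Among lower genes the lowest p values belonged to Csrp2, Capza1, Actn1 and Synpo2. Csrp2, a LIM protein of the Csrp3 family, stood at 8.44, 13.77 and 12.6 CPM in the WT mice and at 7.99, 7.24 and 6.80 CPM in the LSD1-mKO mice, without overlap (log2 fold change -0.67, SE 0.196, adjusted p = 0.588, edgeR). The non-muscle alpha-actinin Actn1 stood at 27.0, 27.6 and 30.4 CPM in WT and at 29.0, 20.7 and 21.1 CPM in LSD1-mKO, with overlap (log2 fold change -0.26, SE 0.144, adjusted p = 0.777, edgeR). Capza1, a subunit of the capping protein of thin filaments, and Synpo2 (myopodin) had log2 fold changes of -0.16 each, without overlap. For the genes of this list that are not muscle-specific, such as Actn1 and Csrp2, the fibroblast markers are given beside them. All 7 were fitted lower in LSD1-mKO, from -0.04 (Dcn) and -0.14 (Pdgfra) to -1.42 (Postn) on the log2 scale. Their median was -0.95, -0.47 without WT replicate 3 and -1.60 without LSD1-mKO replicate 1, with overlapping sums. The 5 immune markers tested were also all fitted lower (median -0.571), with the groups overlapping. The part of these markers in the result was not tested.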

How the data were processed

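RNA-seq libraries from Sol of 3 WT and 3 LSD1-mKO mice after VWR were made from poly(A) RNA and read as single ends of 75 bases. The submitters' notes name STAR, the mm10 genome and DESeq2, and versions and the counting tool are not given in the sources used here. The authors deposited estimated counts per gene, not all whole, which were rounded to whole numbers. A second deposited table holds the authors' fold changes and p-values and was not used. Totals were 8940206 to 13798059 counts per library.

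Genes were tested with edgeR 4.0.16 (quasi-likelihood test, TMM, filterByExpr, no covariates) over all 12828 genes tested, with Benjamini-Hochberg adjustment, in R 4.3.3. Alternatives used DESeq2 1.42.0 (the study's tool) and limma 3.58.1. Steps were checked on simulated data. Single values were tested by exact permutation over the 6 mice. CPM is per 1000000 TMM-scaled counts. TPM was computed with the longest protein-coding transcript of GENCODE vM21 (99.67% of counts had a length). Beside the members, genes were named by rule: Kdm1a; called genes and the 4 lowest p in each direction of the other Z-disc list; Myh1, Myh4, Mybpc2 and the extremes of the fast list; Myh7 and Tnnt1; called genes and the 2 lowest p of the calcineurin list; and the 5 genes nearest to Actn3. The members and lists were chosen with earlier results of these data known. The p-values reflect the spread between mice.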

Additional observations from a re-analysis of the deposited data

How the results depend on the processing

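No call of the 10 genes at an adjusted p under 0.05 arose under any of 13 alternatives. Of 130 comparisons of a gene with an alternative, 122 kept the direction and 8, all without 1 mouse, turned it. These were Actn2 at -0.0785, Myoz2 at -0.0395 and Ldb3 at -0.0016 without WT replicate 2, Myoz1 at 0.0456 and Myoz3 at 0.204 without WT replicate 1, Myoz2 at -0.00053 without LSD1-mKO replicate 1, and Myoz3 at 0.0628 and Csrp3 at 0.052 without LSD1-mKO replicate 2 (log2 fold changes). Their ranges without single mice were -0.0785 to 0.20 for Actn2, -0.189 to 0.0456 for Myoz1, -0.0395 to 0.167 for Myoz2, -0.246 to 0.204 for Myoz3, -0.0016 to 0.10 for Ldb3 and -0.863 to 0.052 for Csrp3. The cause was not tested. Actn3 had log2 fold changes of 1.10 to 2.11 without single mice and 1.48 to 1.53 otherwise, with unadjusted p from 0.00119 to 0.048 and adjusted p from 0.256 to 0.998 over all alternatives.

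Without single mice, the count of the 10 genes lower at an unadjusted p under 0.05 was 0 to 1. For the other Z-disc genes the counts were 1 to 10 higher, with 10 without WT replicate 1, and 1 to 4 lower, with 4 without LSD1-mKO replicate 1, where the genes at a p under 0.05 over the whole table were 1886 of 13079 and 954 of 12984, against 821 of 12828 with all mice. DESeq2 gave 4 higher, and library size alone in place of TMM gave 2 lower. Over all genes tested, edgeR called 1 higher and 1 lower, DESeq2 33 and 9, limma voom 2 and 1, and edgeR with no filter on low counts 8 and 3.

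Mice that share a replicate number did not deviate together (correlations of -0.339, -0.122 and -0.162), and the labels tie no mice across groups, so the numbers mark no pairs. With the number as a replicate block, the log2 fold change of Actn3 was 1.52 (adjusted p = 0.797, edgeR), and 1 gene was called higher and 0 lower over all genes tested.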
